A study of Mus musculus with 2 samples.

Results

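The cells described here were the Lhx2- and Tbx1-bearing epithelial cells of mouse back skin, which lay in clusters below the epidermis and are called members. They were chosen by their own transcript counts. A cell outline with at least 20 decoded transcripts was taken when Trim29, Dsc3, Serpinb5 and S100a14 together made up at least 8% of its transcripts and when Lhx2 and Tbx1 together had at least 3 transcripts. It also had to hold at most 2 transcripts of the division genes Cenpf and Ube2c, at most 2 of the upper-follicle gene Krt79, and under 8% of Lor and Asprv1, genes of the granular layer. The rule found 2761 members among 59588 cells, of which 2072 lay in the SspA+HDM section and 689 in the mock section. The values of these 11 genes chose the cells, so their levels are given as a description only.

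The data were Xenium In Situ measurements, in which single RNA molecules are decoded in place on a tissue section, here with a panel of 379 genes. The SspA+HDM section came from whole dorsal skin of C57BL/6 mice, shaved and depilated and then treated through the skin surface with SspA and HDM, and the mock section from the same strain shaved and depilated alike and given PBS. Both were 5-µm sections of fixed, paraffin-embedded skin at day 7. The labels do not spell out SspA and HDM and give neither the age nor the number of mice. There was 1 section per treatment, so no test between treatments was possible and the intervals below, at 95%, cover counting error only. Each section carried 2 strips of tissue, whose values are printed side by side to show the spread within a section. The strips are parts of 1 sample and were not treated as replicates.

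The hair follicle is a sleeve of epithelium that dips from the epidermis into the dermis. Its lower permanent region, the bulge, and the outer root sheath hold stem and progenitor cells marked by transcription factors such as Lhx2, Tbx1 and Sox9, and WNT and BMP signals set when these cells rest and when they divide. Depilation and wounding are known to start a new growth phase of the follicle, and both sections came from depilated skin.

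The SspA+HDM section had 8124205 gene transcripts at a quality score of 20 or more, and the mock section had 2461475. Of these, 97.6% in the SspA+HDM section and 94.5% in the mock section lay inside cell outlines. The members held 219083 transcripts in the SspA+HDM section and 65188 in the mock section. Transcripts of control features in members numbered 33 in the SspA+HDM section and 8 in the mock section, and the highest single control feature had 3 and 1 transcripts in the same order of sections. A member had a median of 101 transcripts from 35 genes in the SspA+HDM section and 89 transcripts from 33 genes in the mock section. Its outline had a median area of 44.7 µm² in the SspA+HDM section and 48.2 µm² in the mock section, below the 66.1 µm² and 86.0 µm² of the other epithelial cells of the same sections. No outline identifier was shared by the sections.

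The name hair follicle epithelium was checked with Sox9, the 1 marker of the 3 that the rule did not use. Sox9, a transcription factor of outer root sheath and bulge cells, reached 33987 CPM in SspA+HDM members and 36448 CPM in mock members, where CPM scales the summed transcripts of the cells to a total of 1000000 over the panel. In the other epithelial cells Sox9 stood at 6103 CPM in the SspA+HDM section and 6112 CPM in the mock section. Members thus held 5.57 times the Sox9 level of other epithelial cells in the SspA+HDM section (interval 5.4 to 5.7) and 5.96 times in the mock section (interval 5.7 to 6.3). To remove differences in depth, each cell was thinned to 50 transcripts, which left out 155 SspA+HDM members and 63 mock members. After thinning, 65.7% of SspA+HDM members (exact Clopper-Pearson interval 63.5 to 67.8) and 76.2% of mock members (interval 72.7 to 79.5) had a Sox9 transcript. Among other epithelial cells this share was 25.2% in the SspA+HDM section and 24.3% in the mock section. Among non-epithelial cells it was 3.49% and 3.54% in the same order. That class also holds cells that only the 8% limit kept out of the members, 256 in SspA+HDM skin and 75 in mock skin. These had 16497 and 14052 CPM of Sox9, and how much of the non-epithelial share was spill was not tested. Without thinning the members' share was 73.2% in the SspA+HDM section and 86.9% in the mock section, at median depths of 101 and 89 transcripts. Sox9 was not particular to members. Epithelial cells with 3 or more Krt79 transcripts had 15012 CPM of Sox9 in SspA+HDM skin and 14302 CPM in mock skin, and the cells that only the limit on Krt79 kept out had 46331 and 37285 CPM in the same order, above the members. Epithelial cells without Lhx2 or Tbx1 outside those classes had 1135 CPM in SspA+HDM skin and 1242 CPM in mock skin. The Sox9 level of members thus did not go against the label, and the share of members with Sox9 was lower in the SspA+HDM section while the CPM differed by a ratio of 0.93.

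Lhx2, a LIM-homeodomain factor of follicle progenitors, had 57946 and 60286 CPM in the strips of the SspA+HDM section, against 44546 and 42919 CPM in those of the mock section. Tbx1, a T-box factor of the same cells, had 21150 and 20571 CPM in the SspA+HDM strips, against 13452 and 15425 CPM in the mock strips. Both were chosen for, and both were higher in every SspA+HDM strip than in either mock strip. Members with transcripts of both genes were 76.9% in the SspA+HDM section and 70.1% in the mock section, and Tbx1 stood without Lhx2 in only 10 SspA+HDM members and 6 mock members. The median sum of the pair was 7 transcripts per SspA+HDM member and 5 per mock member.

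The cells near the threshold show how sharp this boundary was. Just inside it, with a sum of 3, were 195 SspA+HDM cells with 26446 CPM of Sox9 and 157 mock cells with 42609 CPM. Just outside it, with a sum of 2, were 234 SspA+HDM cells with 22128 CPM of Sox9 and 206 mock cells with 37866 CPM. The rule therefore leaves out cells much like its members in Sox9, and in mock skin this held even for the 261 cells with a sum of 1, at 26436 CPM. The limits on division genes and Krt79 removed cells mainly from the SspA+HDM section. The limit on Cenpf and Ube2c alone kept out 800 SspA+HDM cells and 1 mock cell, and the limit on Krt79 alone kept out 712 SspA+HDM cells and 45 mock cells.

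Members made up about the same share of the epithelium under both treatments, and the SspA+HDM section held more of both per length of skin. Members were 10.3% of the 20195 epithelial cells of the SspA+HDM section (interval 9.84 to 10.7) and 10.5% of the 6566 epithelial cells of the mock section (interval 9.76 to 11.3). By strip the share was 10.3% and 10.3% in SspA+HDM skin, against 10.8% and 10.2% in mock skin. Per millimetre of strip there were 126 and 144 members in the SspA+HDM strips, against 47.6 and 51.4 in the mock strips. All epithelial cells numbered 1229 and 1400 per millimetre in the SspA+HDM strips, against 441 and 502 in the mock strips, so members and other epithelial cells were more numerous by a similar factor. The share depended on the rule. Without the limit on Cenpf and Ube2c it was 14.2% in the SspA+HDM section and 10.5% in the mock section, and without the limit on Krt79 it was 13.8% and 11.2% in the same order. These removals were tried after seeing the data. When every epithelial cell was thinned to 60 transcripts before the rule was applied, the share was 11.1% in the SspA+HDM section and 7.50% in the mock section.

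**Figure D1:**
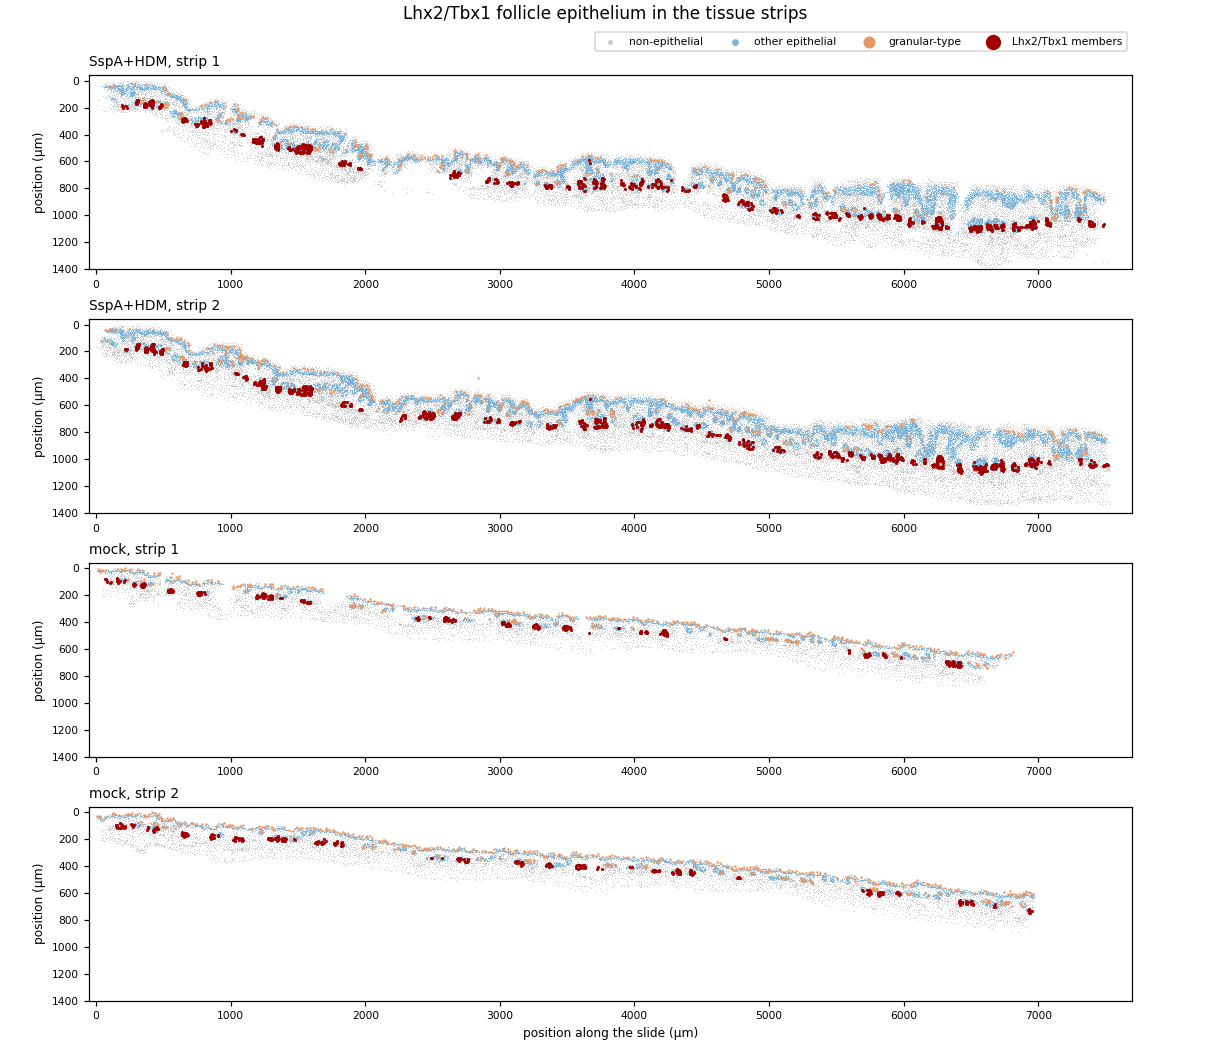
Position of cells in the 4 tissue strips, in µm along and across the slide, with the skin surface at the top of each panel; each dot is 1 cell, coloured as member, granular-type, other epithelial or non-epithelial. Members form separate clusters below the surface epithelium in every strip, more of them and deeper in the SspA+HDM strips than in the mock strips.

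Members lay deeper in SspA+HDM skin. Their depth below the outer edge of the epithelium was 185 and 183 µm at the median in the SspA+HDM strips, against 91.1 and 89.5 µm in the mock strips. The middle of the distribution, between the 5th and 95th percentiles, spanned 115 to 274 µm in the SspA+HDM section and 68.3 to 113 µm in the mock section, so the bulk of the distributions did not overlap. The deepest member was at 310.0 µm in SspA+HDM skin and 145 µm in mock skin. Of the SspA+HDM members, 840 (40.5%) lay deeper than 200 µm, and of the mock members 0 did. This depth includes the thickness of the epidermis itself, which was not measured separately.

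The depth of SspA+HDM members also varied along the strip. In the part of each strip at lower slide positions the median was 147 and 145 µm in SspA+HDM skin, and at higher positions it was 225 and 226 µm. In mock skin the same parts gave 92.1 and 90.1 µm at lower positions and 88.4 and 88.4 µm at higher positions. The parts of a strip thus differed in SspA+HDM skin by more than in mock skin, and members of both parts lay deeper there than in mock skin.

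A second measure of place, the distance to the nearest granular-type epithelial cell (at least 8% Lor and Asprv1), separated the sections less. Its median was 85.2 µm in SspA+HDM members and 67.0 µm in mock members. In SspA+HDM skin 191 of the 814 granular-type cells lay more than 100 µm below the outer edge, against 0 of 857 in mock skin. With granular-type cells taken at 15% or more, the median was 262 µm in SspA+HDM members and 100.3 µm in mock members.

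**Figure D2:**
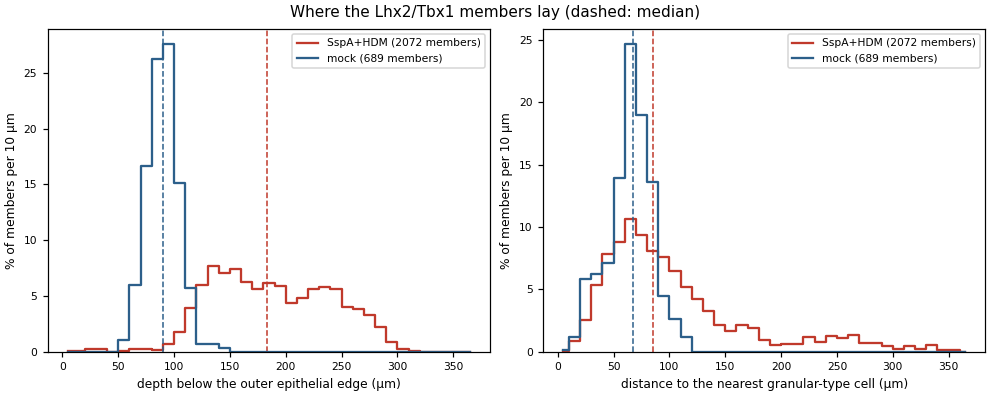
Share of members per 10 µm of depth below the outer epithelial edge (left) and of distance to the nearest granular-type cell (right), for 2072 SspA+HDM and 689 mock members, with dashed lines at the medians. The depth medians are 183 µm and 90.0 µm in that order, and the distance medians are 85.2 µm and 67.0 µm.

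Almost all members sat in compact groups. When members within 25 µm of each other were linked, groups of 5 or more held 97.2% of members in the SspA+HDM section and 93.2% in the mock section. There were 94 such groups in SspA+HDM skin and 44 in mock skin. Per millimetre this was 6.13 and 6.11 groups in the SspA+HDM strips, against 2.76 and 3.56 in the mock strips. A group had a median of 17 members and at most 81 in SspA+HDM skin, against a median of 13 and at most 41 in mock skin. From its outermost to its deepest member a group spanned a median of 41.5 µm in SspA+HDM skin and 29.0 µm in mock skin. By strip the median size was 17 and 17 members in SspA+HDM skin, against 18 and 13 in mock skin. SspA+HDM skin thus had more groups per length in both strips, while the median group size of its strips lay within the range of the mock strips. A group is a cross-section, and 1 follicle cut obliquely can give several.

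The genes that set members apart from other epithelial cells were compared within each section, since both populations there share 1 sample. Of 166 genes with at least 100 transcripts in members or in other epithelial cells of each section, leaving out the rule's genes, 45 (27.1%) were at least 2-fold higher in members in both sections and 38 (22.9%) at least 2-fold lower. For 17 of the 45, the level in the non-epithelial cells within 30 µm of a member, called neighbours, was over 2 times that in members. This was judged in the section where members held more of the gene, and such genes are called genes of the neighbours. Spill from neighbours into members was not tested for these.

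The genes highest in members included Sfrp1, Ptn, Atp6v1b1 and Wif1. Sfrp1, a secreted WNT antagonist, had 66573 CPM in SspA+HDM members against 4306 CPM in other epithelial cells, and 25588 CPM in mock members against 1846 CPM. That was 15.5-fold in SspA+HDM skin and 13.9-fold in mock skin. Ptn, which encodes the growth factor pleiotrophin, was 10.9-fold higher in SspA+HDM members than in other epithelial cells and 11.3-fold higher in mock members. Both genes thus marked members by similar factors in the 2 sections. Neither was particular to members. The 800 SspA+HDM cells that only the limit on Cenpf and Ube2c kept out had 56993 CPM of Ptn and 26018 CPM of Sfrp1. SspA+HDM members had 47060 CPM of Ptn. Mock cells with an Lhx2 and Tbx1 sum of 2 had 42758.5 CPM of Ptn and 17224 CPM of Sfrp1. Mock members had 44226 CPM of Ptn.

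Atp6v1b1, a subunit of the proton pump V-ATPase, and Wif1, a WNT inhibitor, marked members by unequal factors against all other epithelial cells. Atp6v1b1 was 12.7-fold higher in members of the SspA+HDM section (interval 12 to 13.4) and 48.5-fold in the mock section (interval 36.0 to 66.1). Its level in other epithelial cells was 847 CPM in SspA+HDM skin and 63.0 CPM in mock skin. Among these, cells with over 2 transcripts of Cenpf and Ube2c had 5770 CPM in SspA+HDM skin and 106 CPM in mock skin. Wif1 was 13-fold higher in SspA+HDM members and 39.0-fold higher in mock members, and Wif1 is also a gene of dermal papilla cells. The members' neighbours carried 10734 CPM of Wif1 in SspA+HDM skin and 1975 CPM in mock skin. Epithelial cells with over 2 transcripts of Cenpf and Ube2c had 3862 and 191 CPM of Wif1 in the same order. Epithelial cells without Lhx2 or Tbx1 outside the other classes had 50.3 and 36.8 CPM of Atp6v1b1, and 51.4 and 75.9 CPM of Wif1. Members had 10745 and 3053 CPM of Atp6v1b1, and 7084 and 8253 CPM of Wif1. Against the cells without Lhx2 or Tbx1, both factors were thus larger in SspA+HDM skin.

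The remaining genes among the 12 highest were Fxyd6, a regulator of the sodium pump, at 9.10-fold in SspA+HDM members and 9.31-fold in mock members; Timp3, a metalloproteinase inhibitor, at 7.62-fold and 6.88-fold; Gpx2, a glutathione peroxidase, at 5.58-fold and 5.53-fold; and Sox9, given above. Krt13, a keratin, was 8.30-fold higher in SspA+HDM members and 3.75-fold in mock members. Krt8, a simple-epithelium keratin, was 9.86-fold higher in SspA+HDM members and 3.39-fold in mock members, on 105 and 24 transcripts. Of the 7 measured genes of the epithelial transport and ion handling list, 2 were higher in members (Atp6v1b1 and Aqp5) and 1 was lower (Slc34a2), with a median log2 ratio of -1.63, against 0.51 over all 166 genes. Etv1 and Car3 completed the 12 and were more abundant in neighbours, where Car3, an enzyme of fat and muscle, had 47096 CPM in the SspA+HDM section and 82757 CPM in the mock section.

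The low end included genes of late epidermal differentiation. Ivl, a precursor of the cornified envelope, had 201 CPM in SspA+HDM members against 12572 CPM in other epithelial cells, and 123 CPM in mock members against 13152 CPM. Calm4 and Calm5, calmodulin-like genes of differentiating keratinocytes, were at 0.030 and 0.010 times the level of other epithelial cells in SspA+HDM members and at 0.0091 and 0.015 times in mock members. Gm94, Crct1, Rbp2, Slc34a2 and Dnase1l3 made up the rest of the 8 lowest. Of 8 measured genes of the epidermal differentiation list, 5 were lower in members (Ivl, Calm5, Calm4, Cnfn and Sbsn) and Krt13 was higher. Of 8 measured keratinocyte activation genes, 7 were lower in members, among them the stress keratin Krt16 and the growth factor Areg.

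**Figure D3:**
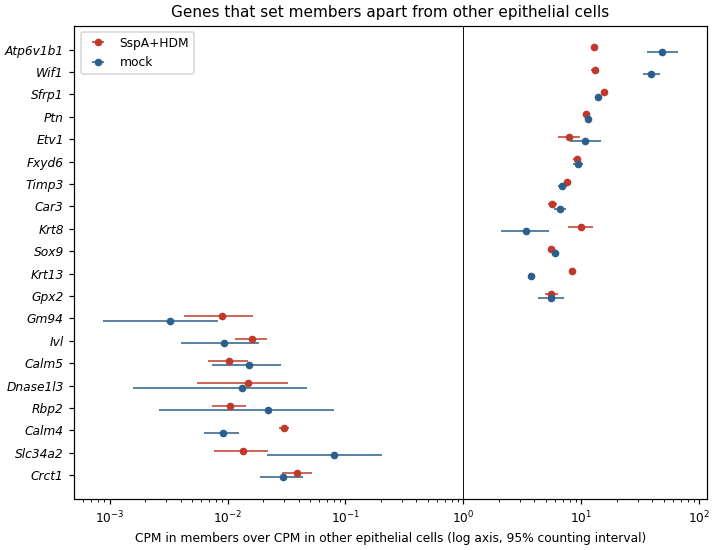
Level in members over level in other epithelial cells of the same section, on a log axis, for the 12 highest and 8 lowest genes, with SspA+HDM in red above mock in blue and 95% counting intervals. Sfrp1 and Ptn have nearly the same ratio in both sections, whereas Atp6v1b1 and Wif1 have a higher ratio in mock skin and Krt13 in SspA+HDM skin.

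Between treatments, Stmn1, Sfrp1, Atp6v1b1 and Hsd11b2 were higher in SspA+HDM members, and Anxa8, Aqp3, S100a4, Serpinb11 and Bmp2 were lower. Among the 122 genes that reached 100 transcripts in the members of either section, SspA+HDM members exceeded mock members by 2-fold or more in 32 (26.2%) and lay below them by 2-fold or more in 18 (14.8%). The median log2 ratio over all 122 was 0.27. In every pairing of an SspA+HDM strip with a mock strip, 24 genes (19.7%) passed 2-fold upwards and 12 (9.84%) downwards. Of the 32 higher genes, 4 belong to the rule (Cenpf, Ube2c, Krt79 and S100a14) and 8 are genes of the neighbours, as are 5 of the 18 lower ones.

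Stmn1, which encodes a protein that takes microtubules apart and is abundant in proliferating cells, had 47496 and 52405 CPM in the SspA+HDM strips, against 3180 and 3110 CPM in the mock strips. The ratio was 15.9 (interval 13.9 to 18.4), on 10970 SspA+HDM and 205 mock transcripts. After thinning to 50 transcripts, 69.5% of SspA+HDM members and 13.4% of mock members had a Stmn1 transcript, beside 22.0% and 7.84% of non-epithelial cells in the same order. Within each section Stmn1 was 3.50 times as high in members as in other epithelial cells in SspA+HDM skin and 0.38 times in mock skin, so its place relative to the other epithelium was opposite in the 2 sections.

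The Stmn1 difference was also present among members in which no transcript of Cenpf or Ube2c was detected. Members had a median of 101 transcripts in SspA+HDM skin and 89 in mock skin. A count of 0 therefore does not show that a cell was not dividing. SspA+HDM members with 0, 1 and 2 transcripts of Cenpf and Ube2c had 33719, 73485 and 89806 CPM of Stmn1, on 1335, 460 and 277 cells. Mock members with 0 such transcripts, 680 of 689, had 2823 CPM. The log2 ratio among members with none was 3.58, an alternative chosen after seeing the data. Among the cells that only the limit on Cenpf and Ube2c kept out, 800 in SspA+HDM skin, Stmn1 reached 105064 CPM and Sox9 13690 CPM, below the Sox9 level of the SspA+HDM members. Along the same series within members Sox9 stood at 39945, 25714 and 19098 CPM and Sfrp1 at 76681, 54397 and 38296 CPM. Cells with more division transcripts thus held more Stmn1 and less Sox9 and Sfrp1.

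Cenpf, a centromere protein, and Ube2c, a ubiquitin-conjugating enzyme of mitotic exit, had 3113 and 1515 CPM in SspA+HDM members, against 92.0 and 61.4 CPM in mock members. Their upper values were set by the rule. The 3 panel genes of the cell division list were all at least 2-fold higher, beside 26.2% of all 122 measured genes. Stmn1 was the only one outside the rule, so the list adds nothing beyond Stmn1 itself.

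The panel held 5 WNT and BMP genes of the signalling list, all measured in members. Sfrp1 had 67724 and 65531 CPM in the SspA+HDM strips, against 25529 and 25647 CPM in the mock strips, a ratio of 2.60 (interval 2.47 to 2.74). Wnt3, a WNT ligand, had 394 and 635 CPM in the SspA+HDM strips, against 91.7 and 30.8 CPM in the mock strips, on 114 SspA+HDM and 4 mock transcripts, a ratio of 8.48 (interval 3.22 to 31.7). Outside the members Wnt3 ran the other way, with 848 CPM in other epithelial cells of SspA+HDM skin and 2580 CPM in those of mock skin. Bmp2, a BMP ligand, had 2468 and 2862 CPM in the SspA+HDM strips, against 7368 and 6989 CPM in the mock strips, a ratio of 0.37 (interval 0.33 to 0.42). Its log2 ratio of -1.42 was -0.59 with transcripts over the nucleus, -0.49 with members that had no non-epithelial cell within 15 µm, -0.85 with SspA+HDM members at lower slide positions and -0.67 without the limit on Cenpf and Ube2c, so the 2-fold size was lost in these 4 settings, the last 2 chosen after seeing the data. The SspA+HDM strips therefore lay above both mock strips for Sfrp1 and Wnt3 and below both for Bmp2. The WNT inhibitor Wif1 at a ratio of 0.86, and Sostdc1, a secreted BMP and WNT antagonist, at 1.61, stayed within 2-fold.

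Among genes of transport and metabolism, Hsd11b2, an enzyme that inactivates glucocorticoids, had 331 transcripts in SspA+HDM members and 0 in mock members. With 3 transcripts put in place of 0 over the mock members the ratio was 32.8. The interval on the counts themselves ran from 26.6 upwards without an upper end. It was found in 9.31% of SspA+HDM members, with 1373 and 1635 CPM in the strips, and its level in other epithelial cells was 186 CPM in SspA+HDM skin and 7.60 CPM in mock skin. Atp6v1b1 had 10306 and 11142 CPM in the SspA+HDM strips, against 3547 and 2555 CPM in the mock strips, a ratio of 3.52 (interval 3.04 to 4.09). It was found in 46.3% of SspA+HDM members and 14.2% of mock members.

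Aqp3, a water and glycerol channel of keratinocytes, had 5062 and 4758 CPM in the SspA+HDM strips, against 17274 and 18196 CPM in the mock strips. Its ratio was 0.28 (interval 0.25 to 0.30). In the other epithelial cells the order was the reverse, with 27557 CPM in SspA+HDM skin and 5995 CPM in mock skin. Members thus held 0.18 times the Aqp3 of other epithelial cells in SspA+HDM skin and 2.96 times in mock skin.

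Other genes higher in SspA+HDM members had few transcripts or higher levels in other cells of the section. Dbpht2, on 111 SspA+HDM and 2 mock transcripts, had a ratio of 16.5 (interval 4.47 to 138), and Hap1, which encodes a huntingtin-associated protein, one of 6.25 (interval 3.10 to 14.7). Krt16 had 3985 CPM in SspA+HDM members and 245 CPM in mock members, while the other epithelial cells had 44208 CPM in SspA+HDM skin and 3649 CPM in mock skin. Members thus held 0.090 times the Krt16 of all other epithelial cells in SspA+HDM skin and 0.067 times in mock skin. Neighbours held 2127 CPM of Krt16 in SspA+HDM skin, below the members, and 245 CPM in mock skin. Acan, a cartilage proteoglycan, Gng11, a G-protein subunit, and Rgs5, a pericyte gene, were 6.25, 4.55 and 4.33 times as high in SspA+HDM members, and their levels in SspA+HDM neighbours were 1931, 3654 and 8913 CPM, against 81.7, 1777 and 4045 CPM in mock neighbours.

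Bgn, a small proteoglycan of connective tissue, had 32234 and 33322 CPM in the SspA+HDM strips, against 7399 and 7789 CPM in the mock strips, a ratio of 4.32 (interval 3.94 to 4.74). Neighbours held 64802 CPM of Bgn in SspA+HDM skin, against 32805 CPM in members, just under the 2-fold limit that marks a gene of the neighbours. In mock skin neighbours held 28471 CPM, against 7593 CPM in members, which is over that limit. Bgn was not marked because the limit was applied in the section where members held more of it. After thinning, 74.4% of SspA+HDM members and 23.2% of mock members had a Bgn transcript, beside 65.2% and 48.5% of non-epithelial cells. The members' share was thus above that of the non-epithelial cells in SspA+HDM skin and below it in mock skin.

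Markers of other cells in the members were compared for the same reason. The 7 fibroblast genes on the panel summed to 42703 and 43577 CPM in the SspA+HDM strips, against 21493 and 20998 CPM in the mock strips. Neighbours held 147502 CPM of them in SspA+HDM skin and 144887 CPM in mock skin. These sums include Bgn itself, at 32234 and 33322 CPM in the SspA+HDM strips and 7399 and 7789 CPM in the mock strips. Without Bgn the rest of the sum was lower in both SspA+HDM strips than in either mock strip. The 4 macrophage genes summed to 586 and 461 CPM in the SspA+HDM strips, against 336 and 462 CPM in the mock strips, beside 13756 and 10167 CPM in neighbours. The 2 dermal papilla genes, Wif1 and Sox2, summed to 6944 and 7532 CPM in the SspA+HDM strips, against 8805 and 8036 CPM in the mock strips. The 3 blood endothelial genes summed to 826 and 687 CPM in the SspA+HDM strips, against 214 and 554 CPM in the mock strips. No listed panel marker of these types was at 0 in the members, and the part of spill in the differences above was not tested. Members that had no non-epithelial cell within 15 µm numbered 182 in SspA+HDM skin and 75 in mock skin. With only these the log2 ratio was 4.07 for Stmn1 and 2.02 for Bgn. That of Bmp2 was -0.49, beside -1.42 over all members. Fewer genes were measured in these cells, and they do not settle the part of spill.

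Genes lower in SspA+HDM members included Anxa8, an annexin of stratified epithelia. It had 25386 and 21475 CPM in the SspA+HDM strips, against 75058 and 74107 CPM in the mock strips, a ratio of 0.31 (interval 0.30 to 0.33). Of SspA+HDM members 51.2% had an Anxa8 transcript, and of mock members 96.2%. Serpinb11, a serine protease inhibitor family member, had 1700 and 1087 CPM in the SspA+HDM strips, against 5442 and 6866 CPM in the mock strips, a ratio of 0.22 (interval 0.19 to 0.26). It marked members in mock skin, where they held 12.5 times the level of other epithelial cells, and hardly in SspA+HDM skin, where they held 1.23 times. These ratios varied along the SspA+HDM strips, a split chosen after seeing the data. Against all mock members, the log2 ratio of Serpinb11 was -1.14 for SspA+HDM members at lower slide positions and -5.18 for those at higher positions. For Aqp3 it was -1.02 and -3.46, for Cldn4 -1.59 and -4.46, for Ly6g6c -1.32 and -3.54 and for Anxa8 -1.13 and -2.39, lower positions first in each pair.

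S100a4, a calcium-binding protein, had 3304 and 2983 CPM in the SspA+HDM strips, against 11343 and 12069 CPM in the mock strips, a ratio of 0.27 (interval 0.24 to 0.30), beside 11611 CPM in SspA+HDM neighbours and 19462 CPM in mock neighbours. Ndrg1, a stress-responsive gene, had a ratio of 0.18 (interval 0.15 to 0.22), at 781 CPM in SspA+HDM members and 4357 CPM in mock members. Cldn4, a tight junction protein, also stood at 0.18 (interval 0.13 to 0.24). It was the only one of 7 measured junction and adhesion genes that was at least 2-fold lower. Of these 7, Trim29, Dsc3, Serpinb5 and S100a14 belong to the rule, which chose cells rich in them. Outside the rule, Col17a1 and Epcam stayed within 2-fold. Ly6g6c, Vsnl1, a neuronal-type calcium sensor, Cryab, a small heat-shock protein, Fmo5, a monooxygenase, and Aspn, a small proteoglycan, had ratios of 0.23, 0.28, 0.31, 0.36 and 0.39. In each of these genes except Aspn both SspA+HDM strips were at least 2-fold below both mock strips.

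Several genes that marked members differed by less than 2-fold between treatments, while others that marked them, such as Sfrp1, Atp6v1b1 and Bmp2 above, passed 2-fold. Sox9 had 35663 and 32470 CPM in the SspA+HDM strips, against 37636 and 35253 CPM in the mock strips, so the strips of the 2 sections overlapped. Ptn had 44845 and 49065 CPM in the SspA+HDM strips, against 45127 and 43319 CPM in the mock strips, which also overlapped. Col17a1, a hemidesmosome collagen of stem and basal cells, had 62508 and 58129 CPM in the SspA+HDM strips, against 82610 and 76570 CPM in the mock strips, a ratio of 0.76. Krt13 had a ratio of 0.60 and Fxyd6 one of 0.60. Sbsn, a suprabasin of differentiating keratinocytes that was lower in members than in other epithelial cells, had one of 0.51. Of the 3 measured bulge and outer root sheath genes, Aqp3 was lower and Col17a1 and Ptn were within 2-fold.

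**Figure D4:**
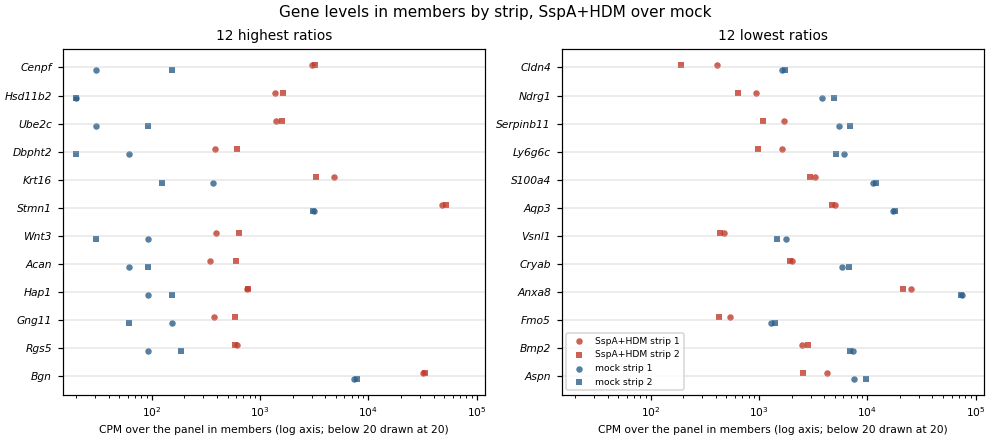
Level of the 12 genes with the highest (left) and the 12 with the lowest (right) ratio of SspA+HDM over mock members, in CPM on a log axis, with each strip drawn as a point (SspA+HDM red, mock blue). The points of the 2 sections do not overlap for any of the 24 genes, and the 2 strips of a section lie close together for genes with many transcripts such as Stmn1, Bgn and Anxa8.

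Some of these levels also changed with depth inside SspA+HDM skin. Between 100 and 150 µm below the outer edge, where both sections had members (548 in SspA+HDM skin and 155 in mock skin), Stmn1 stood at 31697 CPM in SspA+HDM members and 2883 CPM in mock members. In the same depth range Sfrp1 stood at 63790 CPM in SspA+HDM members and 32806 CPM in mock members, Bmp2 at 2879 and 7945 CPM, Anxa8 at 41646 and 60934 CPM, and Aqp3 at 9633 and 14737 CPM, SspA+HDM first in each pair. Within SspA+HDM skin Anxa8 stood at 41646, 15944, 16312 and 10383 CPM from 100 to 150, 150 to 200, 200 to 250 and over 250 µm. Serpinb11 stood at 3274, 919, 216 and 206 CPM over the same steps, and Aqp3 at 9633, 4312, 1730 and 1371 CPM. Stmn1 stood at 31697, 58414, 53911 and 64629 CPM, and Bgn at 20942, 32541, 41186 and 44651 CPM. Sox9 ranged only from 31163 to 37293 CPM over these steps.

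The SspA+HDM members no deeper than the deepest mock member, 512 cells, were set against all mock members as an alternative chosen after seeing the data. With them the 2-fold mark was passed upwards by 12 and downwards by 10 of 77 measured genes. The log2 ratio of Stmn1 was then 3.29, that of Hsd11b2 at least 4.05 and that of Bmp2 -1.34. For Anxa8 it was -0.79, for Aqp3 -0.89, for Serpinb11 -0.80, for Ly6g6c -0.95 and for Aspn -0.91, so these 5 genes were below mock by less than 2-fold. The 2 sets share their greatest depth but not their spread of depths, since only 37 SspA+HDM members lay within 100 µm of the outer edge, against 534 mock members.

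**Figure D5:**
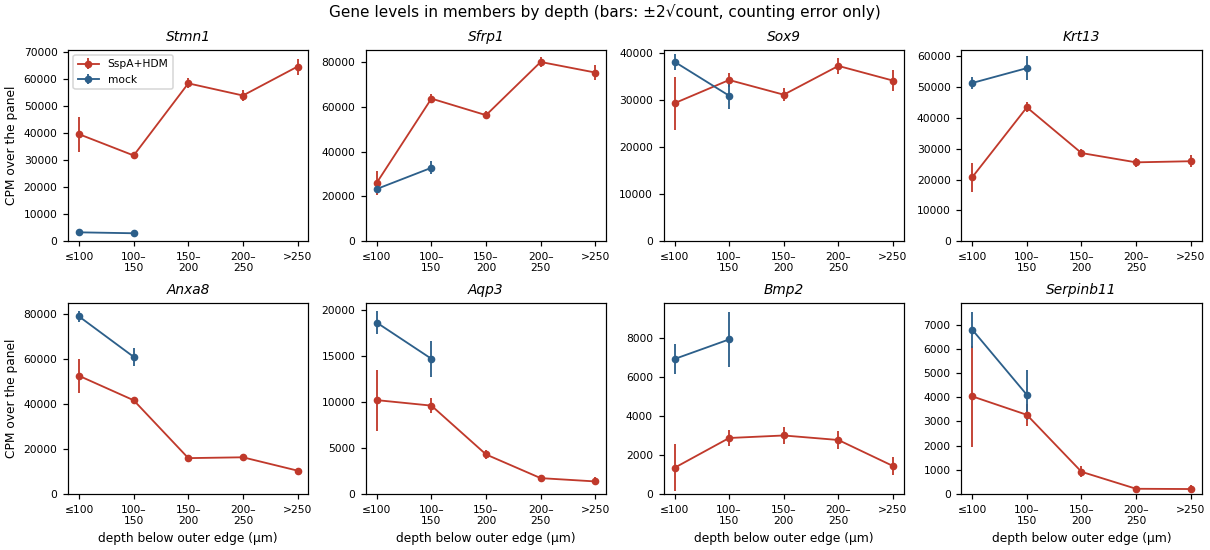
Level of 8 genes in members by depth below the outer epithelial edge, in CPM, for SspA+HDM (red) and mock (blue), with bars of 2 square roots of the count (counting error only); mock skin had no members below 150 µm, and only 37 SspA+HDM members lay within 100 µm. Stmn1 is above mock and Bmp2 below it in both shared depth steps, while Anxa8, Aqp3 and Serpinb11 are lower at greater depth in SspA+HDM skin.

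Within single groups of at least 10 members, split at the group's own middle depth, deeper and outer members also differed. Of 89 measured genes in SspA+HDM skin, 7 (7.87%) were at least 2-fold higher in the 906 deeper members than in the 945 outer ones and 7 (7.87%) at least 2-fold lower. Stmn1 had 67226 CPM in deeper and 32851 CPM in outer SspA+HDM members, a ratio of 2.05 (interval 1.96 to 2.13). Tubb3, a tubulin, had a ratio of 2.04. Hp, Car3 and Pcolce2 were also higher in deeper members, at 2.76, 3.36 and 2.39, and are genes of the neighbours, and Ube2c, at 2.01, belongs to the rule. Anxa8 had 12773 CPM in deeper and 32955 CPM in outer SspA+HDM members, a ratio of 0.39 (interval 0.36 to 0.41), and Gpx2, Coch, Ly6g6c, Serpinb11 and F3, tissue factor, had ratios between 0.34 and 0.50. The ratio of Sox9 was 0.60, and that of Lhx2, which the rule selected on, was 1.30.

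In mock skin 42 genes were measured in 264 deeper and 281 outer members, and 2 (4.76%) were at least 2-fold higher in deeper members, Car3 at 4.20 and Dpt at 3.03, both genes of the neighbours. At least 2-fold lower were 2 (4.76%), Coch at 0.15 and Aspn at 0.28. Stmn1 was not among the 42, since it had under 100 transcripts in both the deeper and the outer mock members. Its levels of 2254 CPM in deeper and 2514 CPM in outer mock members thus rest on few transcripts. Anxa8, Sox9 and the rule gene Lhx2 had ratios of 0.85, 0.94 and 0.92. Whether the pattern within groups differs between the sections was not tested.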

How the data were processed

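Per the labels, Xenium In Situ (version 1 chemistry) was run on 1 SspA+HDM and 1 mock section. The deposited transcript tables give each decoded transcript's quality score, position and cell outline, per the file headers. The software that decoded and segmented the sections is not given in the sources used here. Transcripts with a score of at least 20 were counted per outline, control features left out, and cells with at least 20 kept. Counts were summed over members and scaled to CPM. Ratios have exact conditional binomial intervals and shares exact Clopper-Pearson intervals, both at 95%. A gene was measured at 100 transcripts in a section and called at 2-fold. A count of 0 was set to 3. On simulated counts of the member comparison (379 genes, 96 measured) 96.9% of true ratios lay inside the interval. The counts were drawn with counting error only, which is what the interval assumes. The simulation therefore checks the calculation and cannot show how the interval covers spread between cells, strips or animals. Of the measured genes with a true ratio under 2-fold in either direction, whether or not a change was simulated, 7.59% were called. The genes named were the genes of the rule, the 12 highest and 12 lowest ratios between treatments, the 12 highest and 8 lowest against other epithelial cells, and the extremes of each gene list; genes of the depth comparison within groups were named because they passed 2-fold, and some of them are not reported here. The members and lists were chosen with earlier results of these data known. Python 3.11.15, numpy 2.4.6, pandas 2.3.3 and scipy 1.17.1 were used. Alternatives covered the quality minimum, nuclear transcripts, the rule's limits, thinning, scaling, gene minimum and strips.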

Additional observations from a re-analysis of the deposited data

How the results depend on the processing

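Each treatment had 1 section, so differences between animals, sections and treatments cannot be told apart. The ratio of the members' share of epithelial cells, SspA+HDM over mock, was 0.98. It was 0.85 with no quality minimum, 1.46 with transcripts over the nucleus, 1.39 with Lhx2 and Tbx1 at 5 or more and 1.48 with cells thinned to 60 transcripts. It was 1.35 without the limit on Cenpf and Ube2c and 1.23 without that on Krt79, the last 2 chosen after seeing the data. The 32 genes at least 2-fold higher became 19 without SspA+HDM strip 2, where 90 genes were measured, 8 of 34 measured with no non-epithelial cell within 15 µm, 20 at a minimum of 300 transcripts and 73 with no minimum. In settings chosen after seeing the data they became 18 with SspA+HDM members at lower slide positions, 12 with those no deeper than the deepest mock member and 15 with members lacking Cenpf and Ube2c. The 18 genes at least 2-fold lower became 11 with epithelial genes at 12%, 1 with no non-epithelial cell within 15 µm, 10 at a minimum of 300, 45 with no minimum and 10 at no greater depth. The 45 genes higher than in other epithelial cells became 19 with nuclear transcripts. Median distances to granular-type cells of 85.2 µm in SspA+HDM and 67.0 µm in mock members became 262 and 100.3 µm with a 15% limit, and 183 and 90.0 µm as depth. Sox9 shares of 65.7% in SspA+HDM and 76.2% in mock members became 81.3% and 90.9% thinned to 100 transcripts, and 73.2% and 86.9% unthinned. Beyond what fewer genes or cells explain by construction, the cause was not tested. Of the 24 genes named from the comparison of treatments, 18 kept their direction and 2-fold size in every setting in which each had a value. Acan, Cenpf, Dbpht2, Rgs5 and Ube2c had a value in 17 settings and the others in 18. Of the 24, 6 (Anxa8, Aqp3, Aspn, Bmp2, Ly6g6c and Serpinb11) fell under 2-fold in some settings, and 0 changed direction. The main ratio of Hsd11b2 rests on 3 transcripts put in place of 0 in mock members. No paired analysis was possible because each treatment had 1 section. Between treatments, genes under 100 transcripts in the members of both sections were not called.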
